A study of Mus musculus with 39 samples.

Results

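The lysosomal module described here holds 55 genes: 11 cathepsins and other proteases, 14 glycosidases and sulfatases, 8 lipid enzymes, activators and cholesterol exporters, 6 membrane proteins, channels and progranulin, 13 subunits or accessory proteins of the lysosomal proton pump, and 3 transcription factors of the MiT family. The members are a listed set, drawn up with earlier results of these data known and matched by gene symbol, and all 55 were found among the 43430 genes of the count table. The study sequenced poly(A) RNA, from 3 ng of total RNA per library, of 2 cell populations sorted from lungs of C57BL/6J mice. Lung monocytes are labelled as coming from naive mice, and Siglec F-low alveolar macrophages as coming from mice given bleomycin, an agent that causes lung fibrosis; alveolar macrophages low in Siglec F are mostly cells recruited from monocytes after injury. Each population was taken from young and from old mice given saline or ISRIB, a small molecule that restores eIF2B activity and so blunts the integrated stress response. Bleomycin-treated mice received it by daily intraperitoneal injection from day 7 and were collected at day 21 after bleomycin. The labels give no days for the naive mice, whereas the series record describes bleomycin, injections and collection for both populations alike, so the naive status of the monocytes rests on the sample labels alone. This gave 8 groups of 5 libraries, except for 4 libraries of young ISRIB macrophages. Sample labels give the ages as 8 to 12 weeks and over 18 months, and the series record gives 3 to 5 months and 18 to 24 months.

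Lysosomes break down proteins, glycans and lipids with acid hydrolases, and the vacuolar proton pump, made of a membrane V0 part and a cytosolic V1 part, keeps them acidic. Alveolar macrophages are phagocytes that clear surfactant, dead cells and matrix fragments by this route. TFEB, TFE3 and MITF bind a short E-box sequence present upstream of many lysosomal genes.

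Sequencing depth was 4595331 to 16056708 counts per library (median 8628240), and all members other than Ctsk and Atp6v0d2 had counts in every library. The 8 monocyte markers summed to 6751 to 11601 CPM (counts scaled to the library's effective total) across the monocyte libraries and to 256 to 1025 CPM across the macrophage libraries. The 8 Siglec F-low macrophage markers summed to 860 to 2783 CPM in monocytes and 10879 to 21094 CPM in macrophages. Within their groups, 3 macrophage libraries held most of the lowest member values: young ISRIB replicate 3 was lowest of its group for 31 members, old saline replicate 3 for 30 and old ISRIB replicate 3 for 28. The labels do not say whether libraries of a group came from separate mice. The p-values set group differences against the spread between these libraries, and may not extend to mice. By the sample labels every macrophage library is from a bleomycin-treated mouse and every monocyte library from a naive mouse, so cell type and bleomycin exposure cannot be told apart. In these bulk libraries, fewer cells of a type and less RNA per cell cannot be told apart either.

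The hexamer CACGTG, the core of that E-box, is its own reverse complement. It was searched in the 250 bases upstream of each listed start of the RefSeq genes on build GRCm38.p6. There 46 of the 55 members had an entry, with 57 starts. A gene counted as holding a motif if any of its starts did, as for Ctsa and Lgmn, which also have a start without the hexamer. The hexamer was present in 14 of these 46 members (30.4%) and in 1854 of 27025 genes (6.86%). The longer TCACGTG, searched on both strands and overlapping the hexamer, was in 13 members (28.3%) and 3.58% of all genes, and the variant TCATGTG was in 4 members (8.70%) and 3.72% of all genes. A match describes these letters only. The 5 upstream sequences below are printed 5′ to 3′ on the gene's strand with CACGTG in capitals. Ctsd, Mcoln1 and Atp6v0b hold it and rose with age in macrophages, by log2 fold changes of 0.31, 0.24 and 0.25. Sgsh holds it and was lower in macrophages than in monocytes. Ctsk holds none and was among the members that differed most between the cell types. With age Ctsk rose more than the others shown, by 0.51. The sequences lie at chr7:142387828-142388077 (minus strand) for Ctsd, chr8:3500269-3500518 (plus) for Mcoln1, chr4:117887330-117887579 (minus) for Atp6v0b, chr11:119355511-119355760 (minus) for Sgsh and chr3:95498960-95499209 (plus) for Ctsk.
Ctsd: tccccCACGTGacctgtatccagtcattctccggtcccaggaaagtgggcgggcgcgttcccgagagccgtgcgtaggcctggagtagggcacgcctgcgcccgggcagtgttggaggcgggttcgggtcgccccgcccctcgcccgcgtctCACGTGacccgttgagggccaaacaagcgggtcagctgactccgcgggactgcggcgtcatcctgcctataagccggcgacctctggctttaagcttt
Mcoln1: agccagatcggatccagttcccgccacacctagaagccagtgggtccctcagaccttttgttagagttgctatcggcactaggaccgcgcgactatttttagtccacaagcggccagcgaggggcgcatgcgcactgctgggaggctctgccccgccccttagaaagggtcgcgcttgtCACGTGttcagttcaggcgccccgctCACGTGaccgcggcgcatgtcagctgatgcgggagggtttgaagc
Atp6v0b: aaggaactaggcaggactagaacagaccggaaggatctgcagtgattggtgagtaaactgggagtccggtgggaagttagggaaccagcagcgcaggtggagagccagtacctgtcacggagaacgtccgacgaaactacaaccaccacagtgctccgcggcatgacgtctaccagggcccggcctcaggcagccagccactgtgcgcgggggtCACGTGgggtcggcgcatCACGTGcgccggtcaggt
Sgsh: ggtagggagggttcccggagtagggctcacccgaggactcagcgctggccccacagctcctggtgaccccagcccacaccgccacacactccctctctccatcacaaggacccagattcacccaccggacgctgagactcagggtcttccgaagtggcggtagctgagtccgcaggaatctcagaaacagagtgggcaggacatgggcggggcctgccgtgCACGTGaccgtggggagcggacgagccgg
Ctsk: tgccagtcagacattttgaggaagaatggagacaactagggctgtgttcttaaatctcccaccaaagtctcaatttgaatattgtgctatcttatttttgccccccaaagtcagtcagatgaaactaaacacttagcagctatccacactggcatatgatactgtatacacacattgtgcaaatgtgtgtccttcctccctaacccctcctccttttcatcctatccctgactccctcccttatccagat

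The first bases of the matches stood 245 and 98 bases before the start in Ctsd, 71 and 45 bases before it in Mcoln1, 36 and 18 bases before it in Atp6v0b and 29 bases before it in Sgsh. Lamp1, the abundant lysosomal membrane glycoprotein, held 4 matches. Of the 14 members with the hexamer, 12 were higher in macrophages, 1 was lower and 1 did not pass the test. Of the 32 members without it, 26 were higher, 2 were lower and 4 did not pass. Over all genes 35.8% were higher and 34.2% lower. The median log2 fold changes were 1.07 and 0.97. By age in macrophages over both treatments, 3 of the 14 were higher and none lower. Of the 32, 1 (Ctsk) was higher and 3 were lower, against 3.12% higher and 1.74% lower over all genes. Atp6v1c1, also higher with age, had no entry among these starts.

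Lysosomal genes took a larger share of counts in macrophages. The 55 members held 2.66% to 2.83% of all counts in the monocyte groups and 6.78% to 7.29% in the macrophage groups (group means, n = 4 or 5). Abundant members weigh most in this share, such as Ctsd (median 312 CPM in monocytes and 15573 CPM in macrophages) and Ctss (2018 and 9215 CPM). In saline mice of both ages, 47 of 55 members were higher in macrophages, 3 were lower and 5 did not pass the test (edgeR's quasi-likelihood test, Benjamini-Hochberg adjusted p under 0.05). Among all 13587 genes tested, 9511 were called (70.0%), 4869 of them higher (35.8%) and 4642 lower (34.2%). The median log2 fold change was 0.98 over the members and -0.00 over all genes. In 39 members every macrophage library lay above every monocyte library, in 1 (Sgsh) every macrophage library lay below, and in 15 the ranges overlapped. Over all genes tested, 11.6% lay wholly above and 9.40% wholly below. The count of called members was 50 whichever of the 20 saline libraries was left out.

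**Figure D1:**
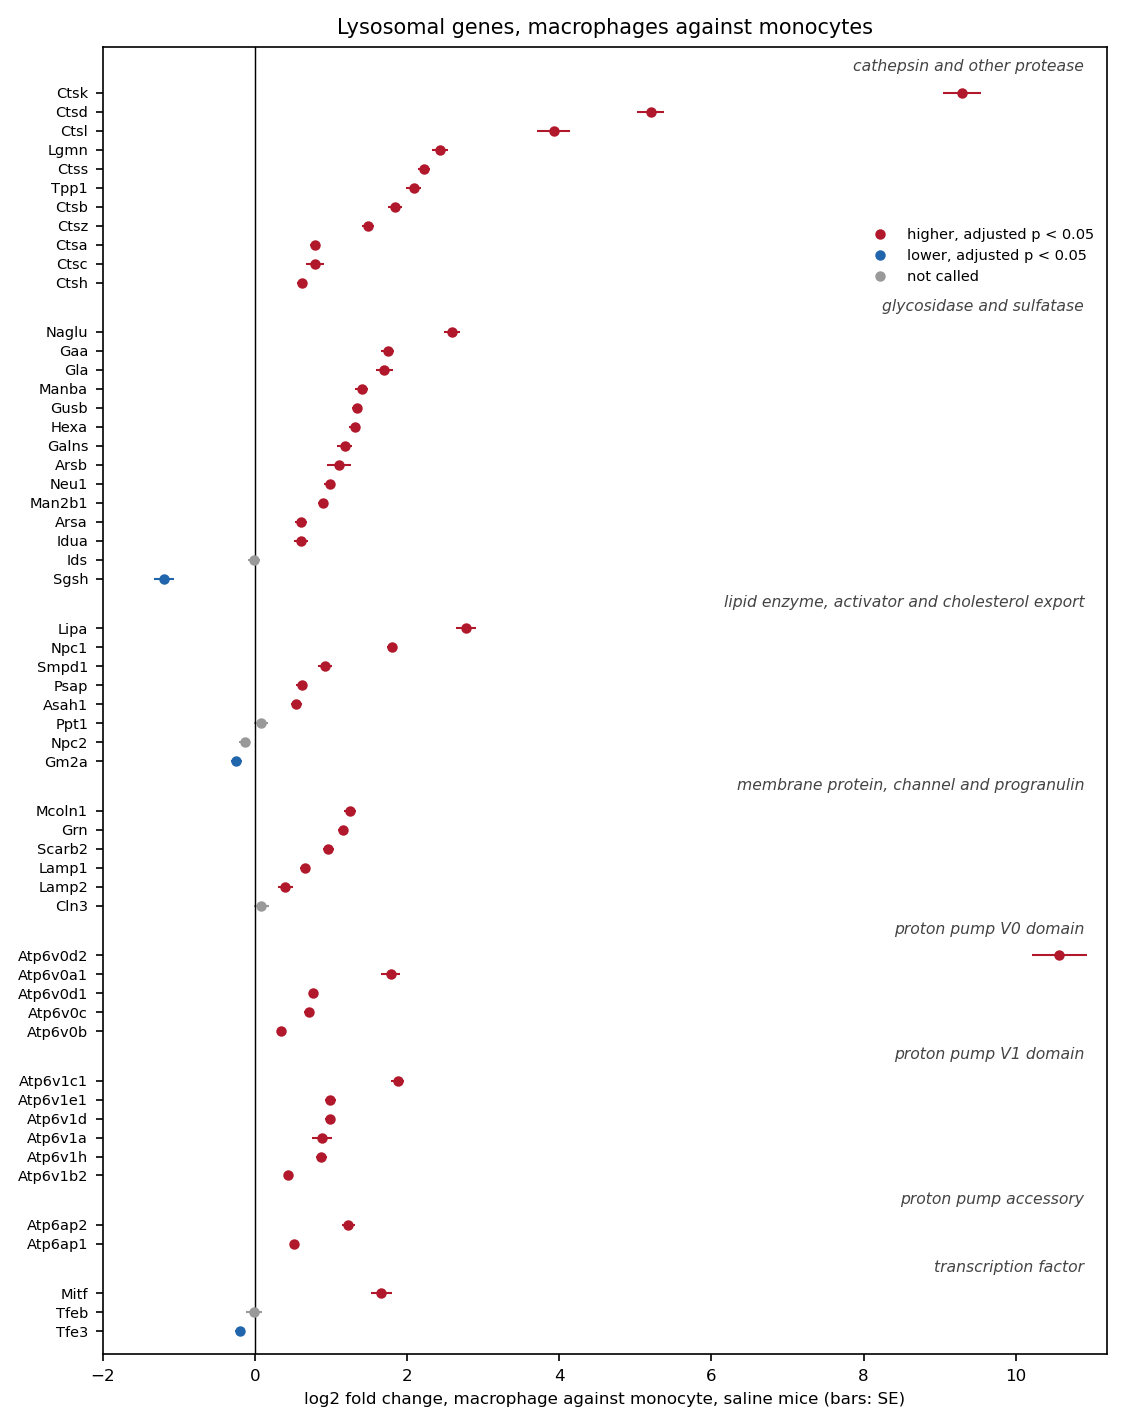
Log2 fold change of each member in macrophages of bleomycin-treated mice against monocytes of naive mice, saline groups of both ages (10 libraries each), grouped by role. Points are the fitted value and bars its standard error. Red points (47) are higher, blue points (3) lower and grey points (5) not called, and Atp6v0d2 and Ctsk lie at 10.57 and 9.30.

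All 11 proteases were higher. Cathepsin K, a collagen- and elastin-degrading cysteine protease best known from osteoclasts, ran from 0 to 2.41 CPM in the 20 monocyte libraries (median 1.28) and from 369 to 1162 CPM in the 19 macrophage libraries (median 697). It was at 0 in 1 monocyte library, close to it in the others and high in every macrophage library, with a log2 fold change of 9.30 ± 0.25 (SE, adjusted p = 3.0e-29). Summed over the saline libraries, 88 counts in monocytes stood against 56361 in macrophages. The gene lies on chromosome 3, from 95499256 to 95509362 on the plus strand, upstream of its relative Ctss at 95526786 to 95556403 on the same strand.

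Cathepsin D, the main aspartic protease of lysosomes, ran from 202 to 649 CPM in monocytes (median 312) and from 11721 to 20061 CPM in macrophages (median 15573). No library of either cell type came near the other range, and the log2 fold change was 5.20 ± 0.18 (adjusted p = 7.7e-26). Per kilobase of transcript, Ctsd ranked 16 among the 55 members in monocytes and 1 in macrophages, where it stood at 7247 CPM per kb, followed by Ctss at 6888 and Psap at 5793. In monocytes Psap, the precursor of the sphingolipid activator proteins, led at 3726 CPM per kb, followed by Ctss at 1495 and Lamp1 at 511.

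Cathepsin L, a cysteine protease, ran from 30.6 to 113 CPM in monocytes (median 59.6) and from 610 to 1376 CPM in macrophages (median 1027), a log2 fold change of 3.93 ± 0.21 (adjusted p = 1.6e-19). Its ranges did not overlap either. Lower down the order, the asparaginyl endopeptidase Lgmn had a log2 fold change of 2.43 ± 0.10, Ctss, which trims the invariant chain of MHC class II, 2.22 ± 0.08, and the tripeptidyl peptidase Tpp1 2.09 ± 0.10. Ctsb stood at 1.84 ± 0.09, and the smallest change among the proteases was in the aminopeptidase Ctsh at 0.62 ± 0.06.

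Of the 14 glycosidases and sulfatases, 12 were higher, 1 was lower and 1 did not pass. Naglu, which removes N-acetylglucosamine from heparan sulfate, ran from 14.9 to 34.4 CPM in monocytes (median 21.0) and from 129 to 187 CPM in macrophages (median 144), a log2 fold change of 2.59 ± 0.10 (adjusted p = 1.4e-23). Sgsh, the sulfamidase that acts earlier on the same chain, moved the other way: 28.8 to 45.4 CPM in monocytes (median 36.3) against 7.83 to 27.2 CPM in macrophages (median 16.3), a log2 fold change of -1.19 ± 0.13 (adjusted p = 2.1e-10). Of the exon bases of Sgsh, 21.6% overlap Card14, and the strand setting of the counting is not given in the sources used here, so reads from the 2 genes may not be told apart. The iduronate sulfatase Ids, of the same pathway, had a log2 fold change of -0.01 ± 0.08 (adjusted p = 0.90).

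Lipid handling split more. Of 8 members 5 were higher, led by Lipa, the acid lipase that frees cholesterol from its esters, which ran from 134 to 383 CPM in monocytes (median 202) and from 1198 to 1985 CPM in macrophages (median 1513). All macrophage libraries lay above the monocyte libraries, with a log2 fold change of 2.78 ± 0.13 (adjusted p = 4.3e-21). The cholesterol exporter Npc1 rose by 1.80 ± 0.07, while its soluble partner Npc2 stood at -0.13 ± 0.07 and did not pass the test (adjusted p = 0.11). Gm2a, the activator that presents the ganglioside GM2 to hexosaminidase, was lower, at 725 to 1113 CPM in monocytes (median 964) and 569 to 912 CPM in macrophages (median 769), with overlapping ranges and a log2 fold change of -0.24 ± 0.07 (adjusted p = 0.0034). The palmitoyl-protein thioesterase Ppt1 did not pass (0.08 ± 0.09).

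Among the membrane proteins, the calcium channel Mcoln1 rose by 1.25 ± 0.08, progranulin (Grn), a regulator of lysosomal enzymes, by 1.16 ± 0.07, and the glucocerebrosidase receptor Scarb2 by 0.96 ± 0.07. The structural glycoproteins changed less, Lamp1 by 0.66 ± 0.07 and Lamp2 by 0.40 ± 0.10 on the log2 scale, and Cln3 did not pass (0.08 ± 0.10).

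All 13 proton pump members were higher, but by very unequal amounts. Atp6v0d2 encodes the d2 form of the stalk subunit, the form best known from osteoclasts, and lies on chromosome 4 from 19876841 to 19922605 on the minus strand. It was at 0 in 8 of the 20 monocyte libraries and at most 3.32 CPM there, and ran from 786 to 1451 CPM in macrophages (median 1152). Summed over saline libraries 62 counts stood against 88662. The log2 fold change was 10.57 ± 0.36 (adjusted p = 8.3e-26), the largest of the 55 members, but its size was unstable with so few monocyte counts: it was 11.82 for Atp6v0d2 without young saline monocyte replicate 3 and 11.90 with limma voom. Its widely expressed form Atp6v0d1 rose by 0.77 ± 0.06. As a share of d1 plus d2 per kilobase, d2 was 0.193% ± 0.371 (SD, n = 5) in young saline monocytes and 71.0% ± 1.43 (SD, n = 5) in young saline macrophages. Osteoclast markers summed to 150 to 270 CPM in monocytes and 636 to 1135 CPM in macrophages and moved only in part: Acp5 and Dcstamp were higher, Nfatc1, the regulator of osteoclast formation, was lower at -0.61, and Calcr was at 0 in all macrophage libraries. Among other pump members, the V1 subunit Atp6v1c1 rose by 1.88 ± 0.08 and the a1 subunit Atp6v0a1 by 1.79 ± 0.13. The smallest change was that of the proteolipid Atp6v0b at 0.35 ± 0.05.

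The 3 transcription factors differed from each other. Mitf ran from 15.5 to 50.6 CPM in monocytes (median 30.9) and from 86.6 to 141 CPM in macrophages (median 106), without overlap, a log2 fold change of 1.66 ± 0.14 (adjusted p = 5.6e-14). Tfeb showed no call (-0.01 ± 0.10, adjusted p = 0.93), with 63.9 to 135 CPM in monocytes and 65.2 to 106 CPM in macrophages. Tfe3 was lower by a small amount, 103 to 147 CPM against 80.4 to 120 CPM, a log2 fold change of -0.20 ± 0.06 (adjusted p = 0.0056).

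**Figure D2:**
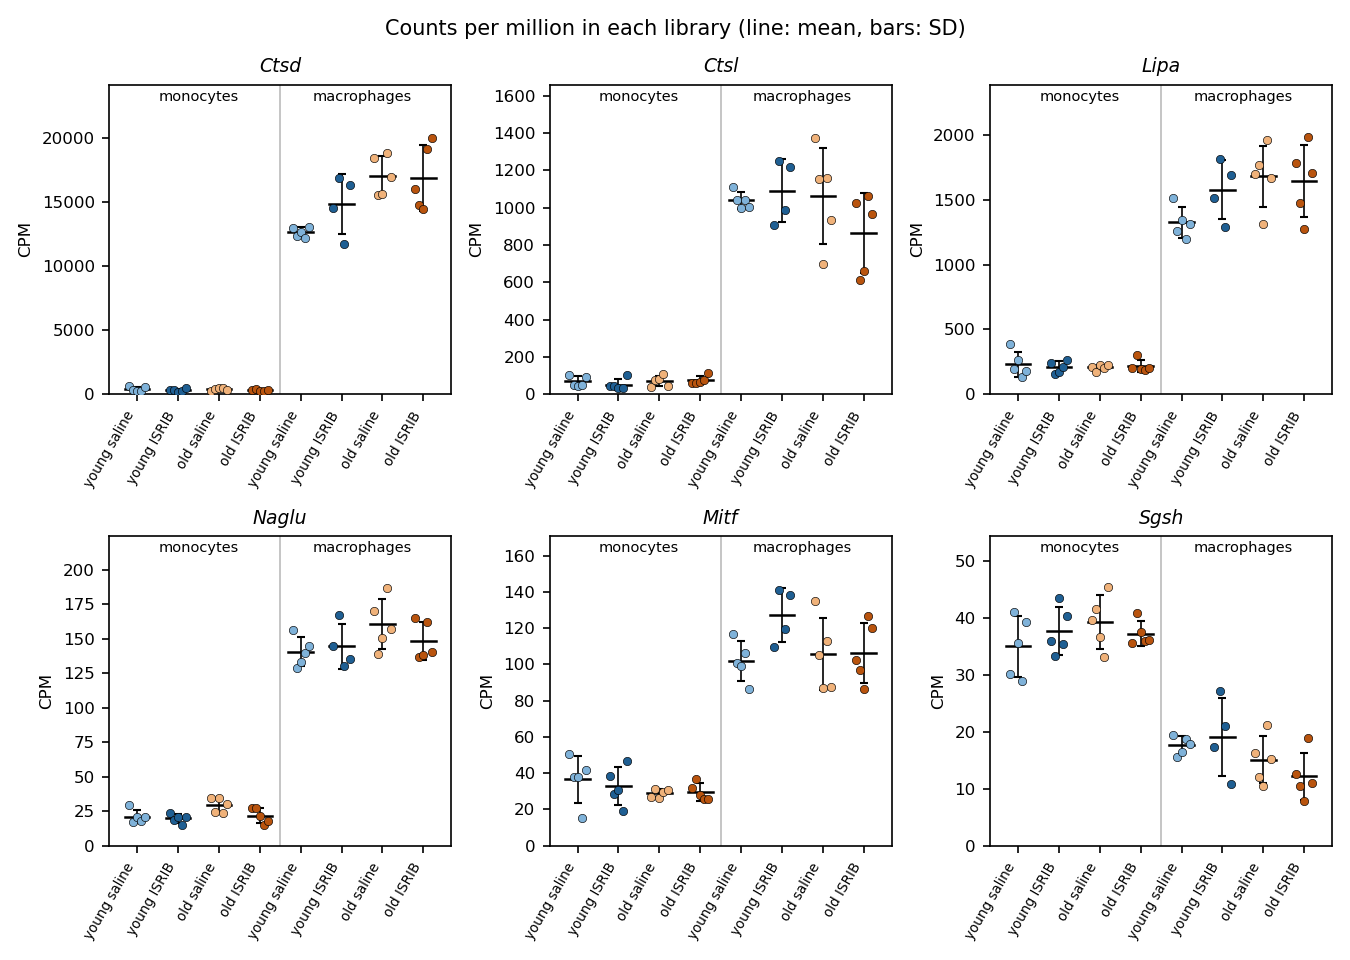
CPM of Ctsd, Ctsl, Lipa, Naglu, Mitf and Sgsh in each of the 39 libraries, monocytes on the left and macrophages on the right of each panel, by age and treatment. Points are libraries, lines group means and bars SD. In the first 5 genes every macrophage library lies above every monocyte library, and in Sgsh every macrophage library lies below.

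Genes of the wider lysosomal pathway, outside the 55, moved in the same comparison as follows, where 35.8% of all genes were higher and 34.2% lower. Of 36 other lysosomal enzymes and membrane proteins 32 were higher and 2 lower, with the tetraspanin Cd63 at 10.15 and the phosphatase Acp5 at 5.34 at the top. The lower ones, Ctsw (-2.45) and the heparan sulfate acetyltransferase Hgsnat (-1.39), were chosen for mention after their values were seen, as were Gga1 and Gga3 below. Of 12 genes that sort enzymes to lysosomes 10 were higher, among them the mannose 6-phosphate receptor Igf2r (4.04), and Gga1 and Gga3 were lower. Of 16 nutrient sensing genes 10 were higher, led by the GTPase Rragd (6.02), and 2 lower. Autophagy genes were mixed, with 10 of 20 higher and 5 lower, Uvrag at -1.76 and Gabarapl1 at 2.27, a share of called genes close to that of all genes. Of 11 other pump subunits 6 were tested, of which 4 were higher and Atp6v0a2 was lower at -0.47. The cysteine protease inhibitors were split, Cstb higher at 2.50 and Cst7 and Cst3 lower at -2.09 and -0.27.

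In macrophages, age changed a small set of members in opposite directions. Over both treatments 8 of 55 members passed the test, 5 higher and 3 lower in old mice. Among all 12171 genes tested 592 were called (4.86%), 380 higher (3.12%) and 212 lower (1.74%). The members' median log2 fold change was 0.02, and that over all genes 0.00. Higher were Ctsk, Ctsd, Atp6v0b, Mcoln1 and Atp6v1c1, and lower were Ctsc, Man2b1 and Gusb.

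Ctsk ran from 369 to 719 CPM in the 9 young macrophage libraries (median 534) and from 611 to 1162 CPM in the 10 old ones (median 763). The ranges overlapped, and the log2 fold change was 0.51 ± 0.10 (adjusted p = 0.0029). Group means were 529 ± 107 (SD, n = 5) in young saline, 596 ± 110 (n = 4) in young ISRIB, 721 ± 71.3 (n = 5) in old saline and 891 ± 182 (n = 5) in old ISRIB macrophages.

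Ctsd stood at 13011, 12346, 12652, 12217 and 13107 CPM in the young saline libraries and at 18483, 15573, 15632, 18826 and 16943 CPM in the old saline libraries. Every old saline library lay above every young saline library. With ISRIB the values were 14569, 16926, 11721 and 16368 CPM in young and 16037, 14790, 14461, 19133 and 20061 CPM in old macrophages, and these overlapped. Over both treatments the log2 fold change was 0.31 ± 0.07 (adjusted p = 0.011).

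Atp6v0b ran from 230 to 273.8 CPM in young and from 274.3 to 327 CPM in old macrophages, and was the one of the 8 whose young and old libraries did not overlap, by a narrow gap (0.25 ± 0.05, adjusted p = 0.0036). The share of all genes without overlap by age was not computed. Of the exon bases of Atp6v0b, 11.8% overlap another gene. Mcoln1 ran from 69.2 to 90.1 CPM in young (median 84.5) and from 86.9 to 105 CPM in old libraries (median 96.0), so that the ranges overlapped at their ends (0.24 ± 0.06, adjusted p = 0.024). Atp6v1c1 rose by a similar amount (0.23 ± 0.07, adjusted p = 0.043).

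The dipeptidyl peptidase Ctsc, which activates granule serine proteases, ran from 1441 to 1920 CPM in young and from 1125 to 1751 CPM in old macrophages, with a log2 fold change of -0.30 ± 0.07 (adjusted p = 0.011). The lysosomal mannosidase Man2b1 ran from 1522 to 1802 CPM in young and from 1101 to 1648 CPM in old libraries and fell by 0.23 ± 0.06 (adjusted p = 0.021). The glucuronidase Gusb ran from 585 to 683 CPM in young and from 493 to 674 CPM in old libraries and fell by 0.19 ± 0.05 (adjusted p = 0.043). In all 3 the ranges overlapped. No glycosidase or sulfatase passed the test as higher.

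**Figure D3:**
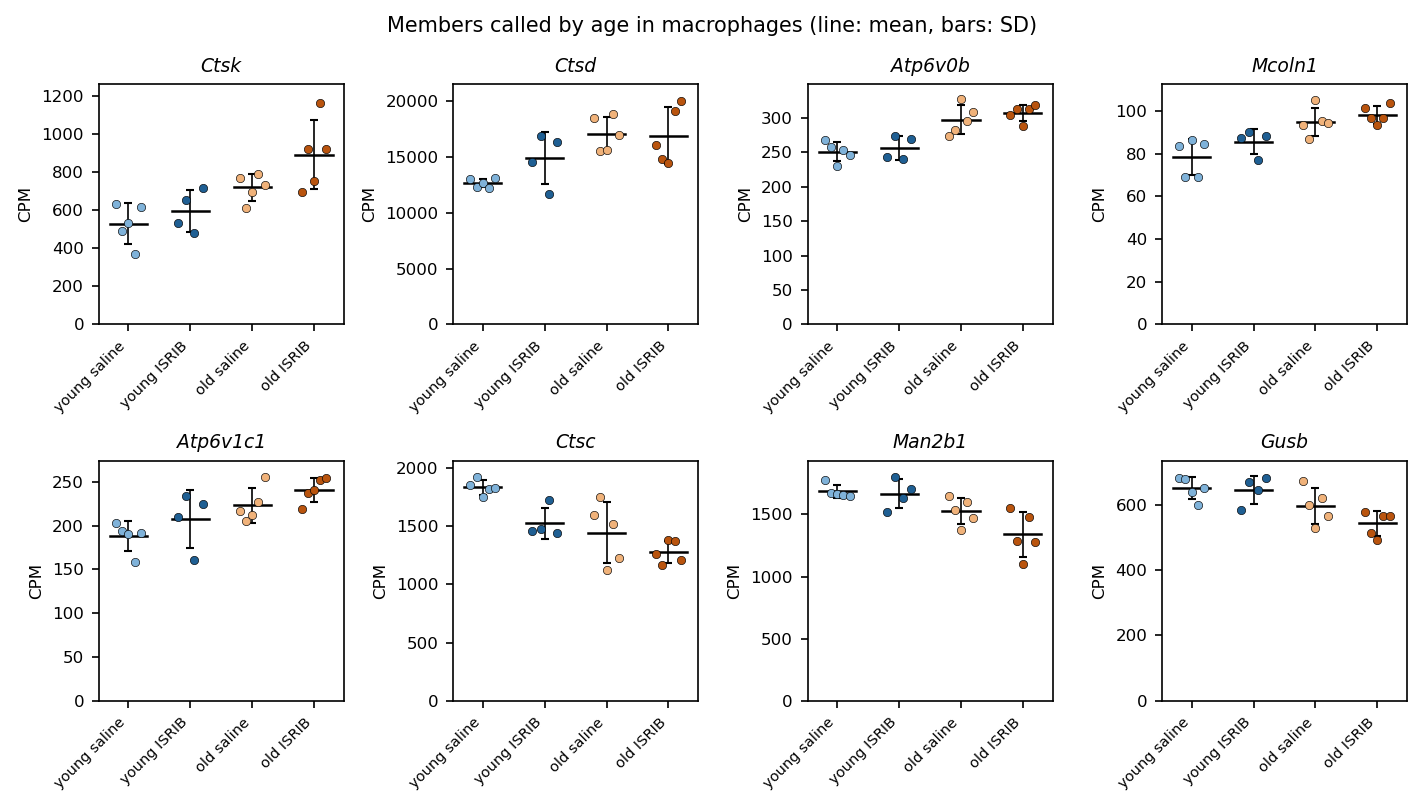
CPM in each macrophage library for the 8 members called by age over both treatments. Points are libraries, lines group means and bars SD, with young groups left and old groups right. Atp6v0b shows no overlap between the 9 young (230 to 273.8 CPM) and the 10 old libraries (274.3 to 327 CPM), and the other 7 overlap.

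The age calls were sensitive to the model. With all 39 libraries in 1 fit only Atp6v0b and Man2b1 of the 55 members passed (2 members), and 340 of 13587 genes were called (2.5%). Ctsk (adjusted p = 0.076), Ctsd (0.37), Ctsc (0.23), Mcoln1 (0.10), Atp6v1c1 (0.14) and Gusb (0.18) lost their calls there. In the fit of macrophages alone, leaving out young ISRIB replicate 3 or old saline replicate 3 left 5, and old ISRIB replicate 3 left 6. Those fits called 415 (3.32%), 472 (3.91%) and 488 (4.02%) of all genes, against 592 (4.86%) with all 19 libraries. Without young ISRIB replicate 3 the 5 members were Ctsk, Atp6v0b, Ctsd, Ctsc and Man2b1. Atp6v1c1 and Gusb, both at an adjusted p of 0.043, lost the call when any of 14 and 13 of the 19 libraries was left out, and Mcoln1 lost it when young ISRIB replicate 3 (adjusted p = 0.063) or old saline replicate 3 (0.055) was left out.

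Old macrophages differed from young ones in other cell markers too. The 6 mature alveolar macrophage markers summed to 4626 to 8091 CPM in the young libraries. In old libraries they summed to 4866 to 8775 CPM with saline and 6807 to 13710 CPM with ISRIB. Of this list, Marco and Fabp1 rose by 2.25 and 2.08 on the log2 scale. The 8 monocyte markers summed to 446 to 1025 CPM in young and 256 to 634 CPM in old libraries. Among them Ccr2, Cx3cr1 and Ace were lower and Plac8 and Treml4 higher. All 7 B cell markers were higher in old macrophages, with sums of 6.29 to 30.1 CPM in young and 22.4 to 589 CPM in old libraries. The T cell genes Cd8a and Trbc2 and the fibroblast gene Mmp2 also rose, and C1qa and C1qb of the Siglec F-low list fell. Neutrophil markers summed to 21.2 to 30.4 CPM in young and 31.2 to 57.4 CPM in old libraries, and dendritic cell markers to 5.30 to 13.4 and 15.8 to 30.9 CPM, both without overlap. T and NK cell markers likewise summed to 1.08 to 4.64 CPM in young and 4.86 to 18.9 CPM in old libraries. Of the neutrophil list Ly6g was at 0 in all macrophage libraries. The part of these shifts in the member changes was not tested.

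Within saline macrophages alone, 1 member passed by age, Ctsd at 0.43 ± 0.10 (adjusted p = 0.023), against 141 of all genes (1.16%), 114 higher (0.937%) and 27 lower (0.222%). Its call was lost without any of 6 of the 10 libraries (replicates 1 to 4 of the young group, 4 and 5 of the old group), where its adjusted p was 0.054 to 0.077. All 5 V0 and all 6 V1 members had fitted values above 0, without passing, against 39 of 55 members and 50.9% of all genes. With ISRIB such values were found for all 5 V0 and 4 of 6 V1 members, against 24 of 55 members and 51.0% of all genes. With saline Atp6v0d2, for example, stood at 0.33 ± 0.09 (adjusted p = 0.054) and was higher in every old library than in every young one. Ctsd, Gla, Lamp1, Mcoln1, Atp6v0b and Atp6v1c1 separated in the same way, and Man2b1 was lower in every old saline library. With ISRIB, Mcoln1 and Atp6v0b were higher and Ctsc and Gusb lower in every old library than in every young one. The other members named for saline overlapped there. What share of all genes separated so was not computed for either treatment. Within ISRIB macrophages 0 members passed by edgeR's quasi-likelihood test (114 of all genes, 0.937%), with 15 members and 12.2% of all genes at an unadjusted p under 0.05. DESeq2 called 3 members among 260 genes. The smallest adjusted p values were those of Ctsk (0.58 ± 0.15, adjusted p = 0.056) and Man2b1 (-0.31 ± 0.08, adjusted p = 0.073).

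Among the wider lists, 6 of the 36 other lysosomal genes were higher with age over both treatments and none lower, against 3.12% and 1.74% of all genes. They include the lysozymes Lyz1 (0.91) and Lyz2 (0.32), the sialomucin Cd164 (0.31) and Ctsw, a protease of lymphocytes, which reached at most 2.90 CPM in a macrophage library (2.44). Of the other pump subunits Atp6v1f rose (0.25), and of the autophagy genes Sqstm1, the cargo receptor p62 (0.31). No sorting, nutrient sensing or cystatin gene passed.

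ISRIB changed 1 member in macrophages over both ages, Atp6v0d2, against 101 of all genes (0.830%), 55 higher (0.452%) and 46 lower (0.378%). In young macrophages it stood at 912, 825, 933, 786 and 928 CPM with saline and at 1301, 1253, 1056 and 1247 CPM with ISRIB, and every ISRIB library lay above every saline library. Ctsc separated in young macrophages too, downward, at 1746 to 1920 CPM with saline and 1441 to 1720 CPM with ISRIB. The share of all genes that separated in young macrophages was not computed. In old macrophages Atp6v0d2 stood at 1088, 966, 1028, 1157 and 1274 CPM with saline and at 1165, 1152, 1264, 1367 and 1451 CPM with ISRIB, and the ranges overlapped. The log2 fold change over both ages was 0.34 ± 0.06 (adjusted p = 0.010), that in young macrophages 0.47 ± 0.09 (adjusted p = 0.085) and that in old macrophages 0.22 ± 0.08 (adjusted p = 0.46). The call held when any of the 19 macrophage libraries was left out (adjusted p 0.0016 to 0.045) and was lost with all 39 libraries in 1 fit (adjusted p = 0.57). Of the 8 Siglec F-low markers, Siglecf (0.57) and Mrc1 (0.35) rose over both ages and the other 6 did not pass. Their sum had a median of 13977 CPM with saline and 17396 CPM with ISRIB in young macrophages, and of 14148 and 14056 CPM in old ones. None of the 6 mature alveolar macrophage markers passed, and their sum had a median of 5273 and 6140 CPM in young and of 7702 and 11848 CPM in old macrophages. The monocyte markers summed to 643 to 1025 CPM with saline and 446 to 678 CPM with ISRIB in young macrophages, and to 335 to 634 CPM and 256 to 385 CPM in old ones. The part of these markers in the change was not tested.

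As a share of both d subunits per kilobase, d2 was 71.0% ± 1.43 (SD, n = 5) with saline and 78.3% ± 1.99 (SD, n = 4) with ISRIB in young macrophages. In old macrophages it was 74.9% ± 1.58 (SD, n = 5) and 77.6% ± 1.88 (SD, n = 5). These shares were not tested.

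**Figure D4:**
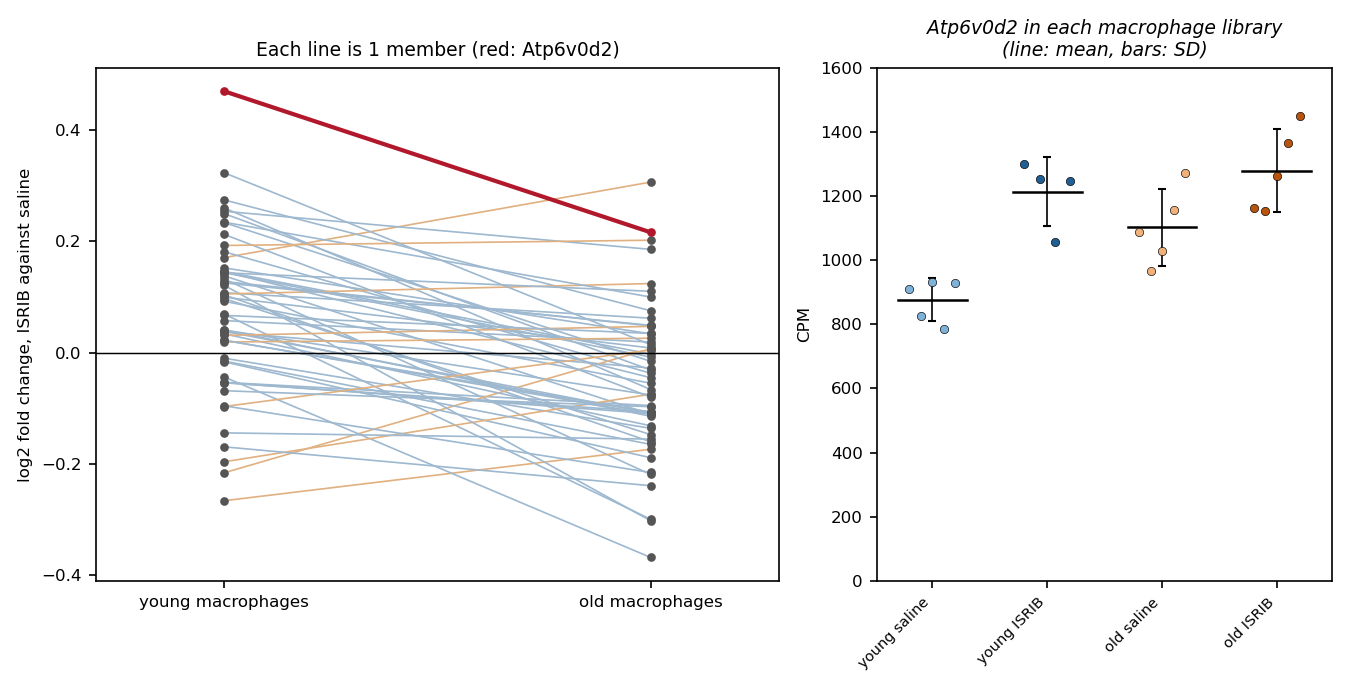
Left, log2 fold change of each member with ISRIB against saline in young and in old macrophages, 1 line per member, blue where the old value is lower and tan where it is higher, with Atp6v0d2 in red. Right, CPM of Atp6v0d2 in each macrophage library, with group means (lines) and SD (bars). The 4 young ISRIB libraries (1056 to 1301 CPM) all lie above the 5 young saline libraries (786 to 933 CPM).

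Without young ISRIB replicate 3, 6 members passed in that comparison: Atp6v0d2 (0.37), the pump accessory protein Atp6ap2 (0.24), Npc1 (0.21) and Scarb2 (0.23) higher, Ctsc (-0.25) and Grn (-0.23) lower. In the same fit 649 of all genes were called (5.19%). In young macrophages alone, leaving it out gave 2 called members, Atp6v0d2 (0.53, adjusted p = 0.0066) and Npc1 (0.34, adjusted p = 0.029), and 304 called genes in all. Over both ages, without old saline replicate 3 or 5, or young saline replicate 5, the member counts were 3, 4 and 2. In those fits 358 (2.96%), 464 (3.84%) and 131 (1.08%) of all genes were called.

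In young macrophages alone 0 members passed for ISRIB by edgeR's quasi-likelihood test, and 0 of all genes passed (0%). An unadjusted p under 0.05 was found for 9 members and for 12.4% of all genes, and DESeq2 called 1 member among 105 genes. There 40 of 55 members and 49.5% of all genes had fitted values above 0. In old macrophages 0 passed (0% of all genes), 8 members and 9.14% of all genes had an unadjusted p under 0.05, and DESeq2 called 0 members among 43 genes. Fitted values were below 0 for 35 of 55 members, led by the sulfatase Galns at -0.37 ± 0.11 (adjusted p = 0.27). The difference of the ISRIB effect between the ages, old minus young, was below 0 for 46 of 55 members and for 50.9% of all genes, with medians of -0.13 and -0.01. With total counts only, the members' median was -0.08 and that over all genes 0.04. None of the 55 members, and 0% of all genes, passed the test of the difference between the ages. There 1 member and 5.10% of all genes had an unadjusted p under 0.05, and DESeq2 called 0 genes. Of the wider lists, Cd164 was the one gene called for ISRIB over both ages (0.37).

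In monocytes, which are from naive mice, no member passed in any of the 6 comparisons by age or treatment by edgeR's quasi-likelihood test, DESeq2 or limma voom. By age the calls over all genes were 3 (0.0247%) with saline, 0 (0%) with ISRIB and 15 (0.123%) over both treatments, and 3, 1 and 5 members had an unadjusted p under 0.05, against 8.81%, 6.60% and 8.24% of all genes. For ISRIB they were 0 (0%) in young, 0 (0%) in old and 0 (0%) over both ages, with 5, 2 and 9 members at an unadjusted p under 0.05, against 6.65%, 7.54% and 7.49% of all genes. The smallest adjusted p among members was that of the galactosidase Gla by age with saline (-0.57 ± 0.18, adjusted p = 0.28). Of the 55 members, 4 varied most between monocyte libraries: within groups the coefficient of variation was 122% on average for Atp6v0d2, 61.3% for Ctsk, 42.4% for Ctsl and 32.8% for Ctsd, against a median of 12.2% over the 55 members. In macrophages the median was 9.38%. Summed over all monocyte libraries, Atp6v0d2 and Ctsk had 174 and 201 counts, so their coefficients there rest on values near the limit of detection.

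The difference of the age effect between macrophages and monocytes, over both treatments, was called for 0 of 55 members by edgeR's quasi-likelihood test and for 101 of all genes (0.743%). Of the members 9 had an unadjusted p under 0.05, against 11.5% of all genes, and DESeq2 and limma voom each called 1 member, among 222 and 90 genes. Atp6v0b came closest, at 0.30 ± 0.08 (adjusted p = 0.054). So age effects called in macrophages and not in monocytes were not shown to differ between the cell types.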

How the data were processed

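RNA was extracted with a PicoPure kit and made into poly(A)-selected NEBNext libraries, per the labels' protocols. The authors deposited raw counts per Ensembl gene (43430 genes, 39 libraries), and the submitters' processing notes name bcl2fastq 2.19.1, FastQC, Trimmomatic 0.36, STAR 2.6.0, HTSeq 0.11.2 and build mm10. Neither the strand setting nor the gene annotation is given in the sources used here, so reads of overlapping genes may not be told apart. Symbols came from GENCODE vM21 for 97.8% of the gene identifiers.

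The members and the gene lists were chosen with earlier results of these data known. Genes passed edgeR's filter (minimum count 10, minimum total 15). Counts were fitted with edgeR 4.0.16 (limma 3.58.1, R 4.3.3), TMM scaling and the quasi-likelihood F-test, with Benjamini-Hochberg adjusted p under 0.05 over all genes tested. Macrophages and monocytes were fitted separately for age and treatment (12171 and 12170 genes) and together for the comparisons across cell types (13587 genes). Standard errors are the log2 fold change divided by the square root of F. Printed CPM are TMM-scaled over all 39 libraries, and values per kb divide them by the principal transcript's length. Genes are named as called members with the largest changes (mean of 5 CPM or more), up to 6 per direction across cell types and 4 elsewhere, beside a list of common lysosomal genes, and list genes and markers were also open to naming. Scripts were tested on simulated data. Alternatives were DESeq2 1.42.0, limma voom, other scalings, no filter, all 39 libraries in 1 fit, only the saline libraries, a replicate block and each library left out. No pair of libraries in a group was a duplicate. Totals of 4595331 to 16056708 counts limit the precision of low members. The result for 1 marker gene is not reported here.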

Additional observations from a re-analysis of the deposited data

Results flagged for a closer look

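In 27 members named or listed for description, each group was checked for a library far from the others of its group, 216 checks in all. Chance alone sets a library apart in about 1 in 20 groups, and 15 were found. In macrophages, young ISRIB replicate 3 stood apart for Ctsc (1720 CPM against 1441 to 1476) and Gla (90.0 CPM against 139 to 145). Young saline replicate 4 stood apart for Hexa (830 CPM against 938 to 977), Atp6v1c1 (159 CPM against 191 to 203) and Tfeb (65.2 CPM against 92.5 to 96.9), and young saline replicate 1 for Man2b1 (1775 CPM against 1651 to 1676).

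In monocytes the libraries were old saline replicate 5 for Ctsc (703 CPM against 992 to 1093), young ISRIB replicate 5 for Ctsl (102 CPM against 30.6 to 45.4), old ISRIB replicate 2 for Lipa (299 CPM against 183 to 205), young saline replicate 1 for Psap (13740 CPM against 9270 to 10455) and old saline replicate 3 for Psap (11770 CPM against 9229 to 9777). Young saline replicate 5 stood apart for Gm2a (725 CPM against 990 to 1081) and old ISRIB replicate 5 for Smpd1 (20.1 CPM against 17.8 to 18.1) and Tfeb (63.9 CPM against 87.7 to 93.7). Atp6v0d2 in young saline replicate 3 (1.71 CPM against 0 to 0.240) lies near the limit of detection.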

How the results depend on the processing

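The count of members called between macrophages and monocytes was 50 to 51 under the alternatives and 50 with any of 20 libraries left out, and all 50 were called in every one. The direction of 4 members that were not called turned: Ids was 0.033 with only the 20 saline libraries and -0.077 to 0.029 with 1 library left out, Tfeb 0.014 with limma voom, 0.030 with only the 20 saline libraries and -0.061 to 0.071 with 1 library left out, and Ppt1 -0.00048 and Cln3 -0.011 with total counts only. By age over both treatments, the all-39 fit gave 2, and single libraries left out gave 5 to 8. By age with saline, the counts were 2 with total counts only, 5 without a filter, 5 with DESeq2, 3 with limma voom and 0 in the all-39 fit, and 0 to 3 with 1 library left out. By age with ISRIB, they were 1 with total counts only, 2 without a filter, 3 with DESeq2 and 0 to 2 with 1 library left out. For ISRIB over both ages they were 3 without a filter, 4 with DESeq2, 0 in the all-39 fit and 1 to 6 with 1 library left out. In young macrophages they were 1 without a filter, 1 with DESeq2 and 0 to 2 with 1 library left out, and in old macrophages 1 without a filter. Without a filter 224 and 220 of all genes were called in young and old macrophages, and DESeq2 called 105 in young ones. The age difference between cell types was called for 1 member with DESeq2, 1 with limma voom and 0 to 1 with 1 library left out. Over all genes, the lowest and highest counts under the alternatives with all libraries of the comparison were 60 and 468 for age with saline (141 as reported), 50 and 405 for age with ISRIB (114), 340 and 975 for age over both treatments (592) and 17 and 640 for ISRIB over both ages (101), lowest in the all-39 fit and highest without a filter. The cause of these changes was not tested.

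The median correlation of same-numbered libraries was 0.00 in macrophages and -0.01 in monocytes, against 0.00 and -0.01 for libraries with different numbers. Such a median cannot exclude a pairing or batch shared by some libraries. Replicate 3 held most of the lowest member values in young ISRIB, old saline and old ISRIB macrophages. With the number as a replicate block, the member counts were 6 for age over both treatments and 2 for age with saline. They were 2 for ISRIB over both ages and 1 for ISRIB in young macrophages. In the same order, 497, 180, 343 and 10 of 12171 genes were called, against 592, 141, 101 and 0 as reported.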
